A study of Mus musculus with 8 samples.

Results

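The genes described here encode the subunits of the mitochondrial respiratory chain and ATP synthase in mouse back skin. They were chosen by symbol: protein-coding genes that begin with mt-Nd, mt-Co, mt-Cytb, mt-Atp, Ndufa, Ndufb, Ndufc, Ndufs, Ndufv, Uqcr, Cox4 to Cox8 or Atp5. The rule took 102 of the 49671 genes in the count table. Of these, 13 were encoded by the mitochondrial genome and 81 were nuclear genes counted as subunits. The other 8, Ndufaf1 to Ndufaf8, share the Ndufa prefix but encode assembly factors of complex I, and they are given apart. The samples were total back skin of 8-week-old mice, with 4 libraries of genotype Flg ko/ko and 4 of Flg wt/wt, each read as RNA-seq counts per gene. Per the labels, the knockout was the only factor, and the strain, sex and kind of allele are not given in the sources at hand. Flg encodes profilaggrin, the precursor of a protein of the outer epidermis, and the comparison asks which transcripts differ in Flg-deficient skin.

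Mitochondria make most of a cell's ATP by passing electrons from NADH and succinate along complexes I, III and IV to oxygen, and complex V uses the proton gradient that results. The chain is built from both genomes: the mitochondrial DNA encodes the membrane core of complexes I, III, IV and V, while the nuclear genome encodes the other subunits, which are made in the cytosol and imported. The mitochondrial transcripts are cut from long precursors read from each strand of the circular genome, and the nuclear subunits have their own promoters.

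The libraries held 38545957, 18483242, 24686151 and 26723517 counts for ko/ko replicates 1 to 4, against 34263154, 24495725, 23817186 and 25725124 counts for wt/wt replicates 1 to 4. Values below are CPM, counts scaled to a common library size after correction for composition. Flg (chr3:93273523-93293686, plus strand, mm10) had 27.0, 24.7, 24.1 and 22.3 CPM in ko/ko skin, against 66.9, 46.5, 56.1 and 66.6 CPM in wt/wt skin. Its log2 fold change, ko/ko over wt/wt, was -1.27 ± 0.12 (SE, edgeR adjusted p = 0.00326), and a two-sided exact permutation test gave p = 0.0286, the smallest the 70 assignments allow. White adipocyte markers summed to 4045 to 6068 CPM in ko/ko skin, against 2531 to 5292 CPM in wt/wt skin, where replicate 3 was the highest. Their median log2 fold change was 0.77, with 15 of 16 above 0 and 0 called. Skeletal muscle markers summed to 25851 to 31300 CPM in ko/ko skin and 19746 to 28445 CPM in wt/wt skin. Of the 17 tested muscle markers 11 lay above 0 and 6 below, with a median log2 fold change of 0.07. The 1 called marker, the slow troponin T gene Tnnt1, was lower in ko/ko skin, against the direction of most of the list. It had 2.97, 2.19, 2.67 and 1.68 CPM in ko/ko skin, against 10.3, 3.80, 7.04 and 6.37 CPM in wt/wt skin. It is named after its values were seen. The groups did not overlap, and its log2 fold change was -1.52 ± 0.29 (SE, edgeR adjusted p = 0.0406), beside 0.702% of all tested genes called lower. Keratinocyte markers summed to 13147 to 15365 CPM in ko/ko skin and 15509 to 16377 CPM in wt/wt skin, with all 12 detected. The tissue was not separated, so fewer cells of a type and less RNA per cell cannot be told apart.

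Part of the reads of the mitochondrial genes could not be placed with certainty, because stretches of the mitochondrial genome lie copied in chromosome 1. The sequences below show this for 2 genes of complex IV, the first bases of mt-Co2 with the matching stretch of the chromosome 1 gene Gm28661, and a stretch of mt-Co1 with that of Gm29216. Each is read in the direction of the gene (GRCm38, the build called mm10 here), and capitals mark the 1 base that differs.
mt-Co2, chrM:7013-7102, plus strand: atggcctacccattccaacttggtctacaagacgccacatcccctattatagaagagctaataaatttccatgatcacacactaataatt
Gm28661, chr1:24615476-24615565, minus strand: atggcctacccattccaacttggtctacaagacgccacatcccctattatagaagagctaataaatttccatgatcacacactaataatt
mt-Co1, chrM:6390-6479, plus strand: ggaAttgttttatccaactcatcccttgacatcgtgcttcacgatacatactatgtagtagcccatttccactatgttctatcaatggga
Gm29216, chr1:24616099-24616188, minus strand: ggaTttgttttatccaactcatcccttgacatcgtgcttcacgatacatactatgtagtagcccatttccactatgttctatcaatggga

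The copy of mt-Co2 was identical over all 681 coding bases, and it held 58.9% of the counts of the pair over the 8 libraries. Whole copies on chromosome 1 were also annotated for mt-Atp6 (Gm10925, 47.4% of the joint counts), mt-Nd4l (Gm10222, 48.6%), mt-Nd3 (Gm28438, 1 difference in 345 bases, 38.6%) and mt-Co3 (Gm28437, 36.7%). The chromosome 1 copy of mt-Co1 covered only 480 of 1542 coding bases with 1 difference and held 2.43% of the joint counts. A further annotated copy of mt-Co1, Gm13340, matched at 97% identity or more over at least 80% of the coding bases and held 0.406% of the joint counts. For mt-Nd4 the copy Gm28439 covered 876 of 1378 bases and held 2.84%. The share that went to a copy hardly moved between libraries for mt-Co2 and moved more for others. For mt-Nd4l it ran from 46.0% in wt/wt replicate 1 to 53.5% in ko/ko replicate 4. For mt-Nd3 it ran from 36.0% in ko/ko replicate 1 to 41.1% in wt/wt replicate 1. For mt-Co2 it was 59.4%, 59.8%, 59.3% and 58.8% in ko/ko skin, against 58.2%, 58.0%, 59.2% and 59.1% in wt/wt skin. Only annotated genes were searched for copies. The gene mt-Atp8 lies between mt-Co2 and mt-Atp6, whose copies follow in the same order at chr1:24614885-24615565 and chr1:24613974-24614651. Gm10925 matched 40 of the 201 coding bases of mt-Atp8, and an unannotated copy was not searched for. The handling of reads with several alignments is not given in the sources at hand. Levels of mt-Atp8 and of the 5 genes with a whole annotated copy on chromosome 1 are thus not comparable with the others.

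The 8 genes without a whole annotated copy on chromosome 1 were ranked by level per kilobase of gene. The highest was mt-Co1 (chrM:5328-6872), the catalytic subunit of complex IV, at 4641 CPM per kb in ko/ko skin and 5156 in wt/wt skin. The next was mt-Cytb (chrM:14145-15288), the cytochrome b of complex III, at 4372 CPM per kb in ko/ko skin and 4580 in wt/wt skin. The complex I subunit mt-Nd1 (chrM:2751-3707) followed with 3487 CPM per kb in ko/ko skin and 3239 in wt/wt skin. The ranges of these neighbours over the libraries overlapped. The 5 genes with a whole chromosome 1 copy were listed far lower, from 378 CPM per kb for mt-Atp6 in ko/ko skin and 419 in wt/wt skin to 23.7 for mt-Nd4l in ko/ko skin and 20.9 in wt/wt skin. The lowest was mt-Atp8 (chrM:7766-7969), a small subunit of complex V whose gene overlaps mt-Atp6, at 2.998 CPM per kb in ko/ko skin and 3.24 in wt/wt skin. It had 143 counts over all 8 libraries, and its level is uncertain for the reason given above.

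**Figure D1:**
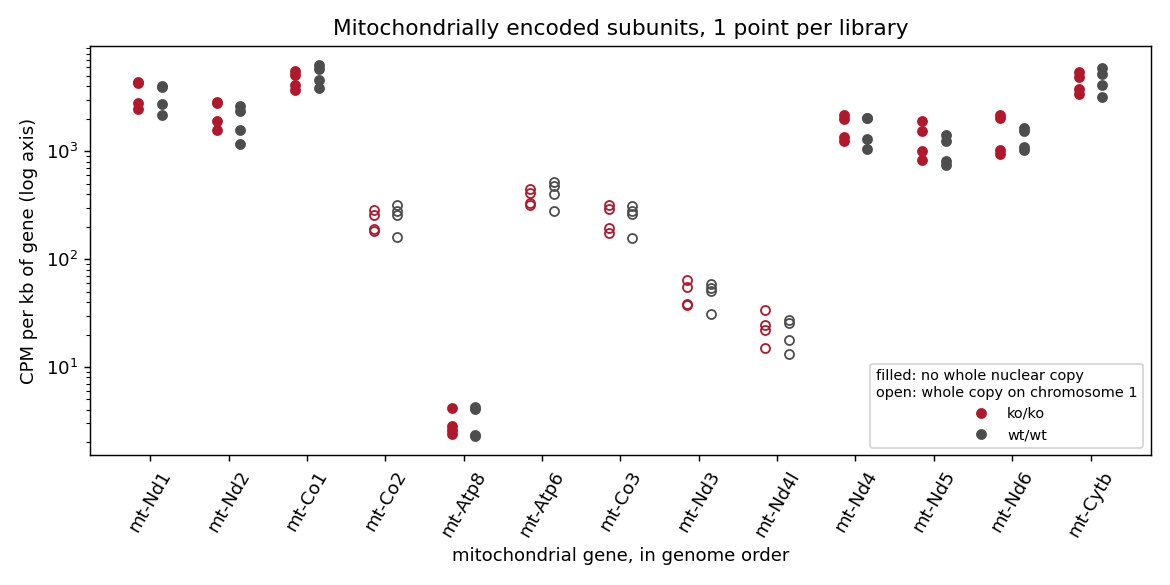
Level of the 13 mitochondrially encoded subunits in CPM per kb of gene (log axis), 1 point per library, ko/ko in red left of wt/wt in grey. Open circles mark the 5 genes with a whole annotated copy on chromosome 1, which lie below the genes shown filled except mt-Atp8. An unannotated copy of mt-Atp8 was not searched for.

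The mitochondrially encoded subunits swung widely between libraries of the same genotype. Together they took 2.99%, 2.03%, 2.72% and 1.79% of all counts in ko/ko replicates 1 to 4, against 2.07%, 2.95%, 1.67% and 2.91% in wt/wt replicates 1 to 4. High and low libraries occurred in both genotypes, and the group means of 2.38% ± 0.57 and 2.40% ± 0.63 (SD, n = 4 each, ko/ko and wt/wt) lay closer than the spread within either. The nuclear subunits took 0.616%, 0.699%, 0.649% and 0.639% in ko/ko skin, against 0.717%, 0.695%, 0.622% and 0.763% in wt/wt skin. The highest library exceeded the lowest 1.79-fold for the mitochondrial sum and 1.24-fold for the nuclear sum.

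The balance of the 2 genomes was read as the ratio of the summed mitochondrial counts to the summed nuclear counts within a library, which does not depend on library scaling. It was 4.85, 2.90, 4.19 and 2.80 in ko/ko skin, against 2.88, 4.24, 2.69 and 3.81 in wt/wt skin. The groups overlapped almost fully, with a pair of libraries at 3.81 or above and a pair at 2.90 or below in each genotype. The mean log2 ratio was 1.84 ± 0.39 in ko/ko skin and 1.74 ± 0.32 in wt/wt skin (SD, n = 4 each), a difference of 0.10. With each library left out in turn, the mitochondrial over nuclear sum, log2 difference, lay between -0.05 (without ko/ko replicate 1) and 0.22 (without ko/ko replicate 4). Leaving out the 5 mitochondrial genes with a whole chromosome 1 copy, a choice made after seeing the data, gave the same difference of 0.10.

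**Figure D2:**
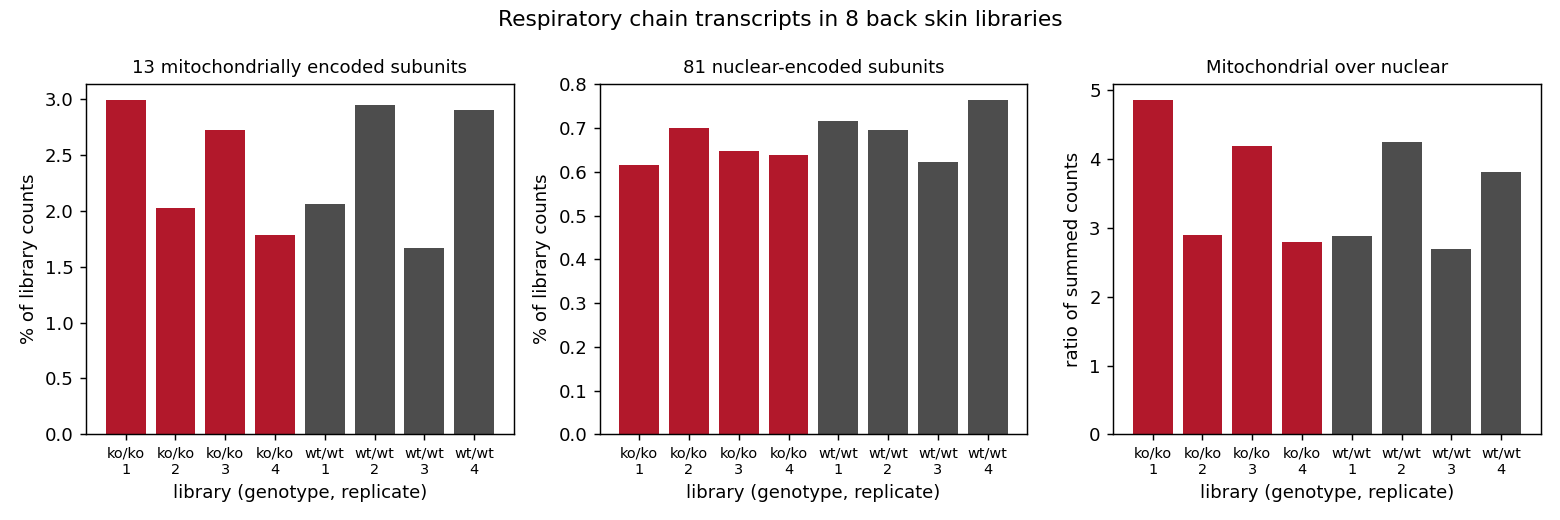
Share of all counts taken by the 13 mitochondrially encoded and the 81 nuclear-encoded subunits (percent) and the ratio of the sums, with 1 bar per library and no error bars. The ratio lies between 2.80 and 4.85 in the ko/ko libraries (red) and between 2.69 and 4.24 in the wt/wt libraries (grey).

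By gene, 0 of the 13 mitochondrially encoded subunits passed the test at an edgeR adjusted p under 0.05, and the smallest adjusted p was 0.573. The median log2 fold change was 0.01, beside -0.02 over all 19099 tested genes, of which 1.41% were called. The largest value belonged to mt-Nd5 (chrM:11742-13565), a proton-pumping subunit of complex I, with 3497, 1828, 2789 and 1504 CPM in ko/ko skin, against 1364, 2581, 1489 and 2267 CPM in wt/wt skin. Replicates 1 and 3 were the high ko/ko libraries and replicates 2 and 4 the high wt/wt libraries, so the groups overlapped. Its log2 fold change was 0.32 ± 0.29 (SE, edgeR adjusted p = 0.573). The value for mt-Co1 was -0.15 ± 0.20 (edgeR adjusted p = 0.702).

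All 7 mitochondrial subunits of complex I had fold changes above 0 and the 6 of complexes III, IV and V below 0, although with library totals as the only scaling mt-Nd3 turned to -0.01, and with the reads of its copy added, a choice made after seeing the data, to -0.03. In complex I the values were 0.11 for mt-Nd1, 0.24 for mt-Nd2, 0.01 for mt-Nd3, 0.07 for mt-Nd4, 0.19 for mt-Nd4l, 0.32 for mt-Nd5 and 0.22 for mt-Nd6. In the other complexes they were -0.07 for mt-Cytb, -0.15 for mt-Co2, -0.04 for mt-Co3, -0.15 for mt-Atp6 and -0.10 for mt-Atp8, besides mt-Co1. Apart from mt-Nd5, each of these values was smaller in size than its SE. With limma voom and quality weights only mt-Nd2 (0.04) and mt-Nd5 (0.09) of the 7 stayed above 0. Leaving out ko/ko replicate 1 turned 4 of the 7 below 0, leaving out ko/ko replicate 3 or wt/wt replicate 3 turned 3, and leaving out wt/wt replicate 1 turned 1. The gene mt-Nd6 is the only subunit read from the other strand and its end overlaps mt-Nd5, and no source at hand gives the strand setting of the counting.

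Because all of them were counted in the same library, the members could also be set against mt-Co1 there. For each 100 counts of mt-Co1 there were 40.4, 28.7, 35.1 and 26.4 counts of mt-Nd5 in ko/ko skin, against 19.2, 28.7, 25.1 and 23.0 in wt/wt skin. The ko/ko libraries held 3 of the 4 highest ratios, and the groups overlapped through wt/wt replicate 2. For mt-Nd2 the ratios were 34.3, 31, 36.5 and 28.8 in ko/ko skin, against 23.2, 30.4, 20.3 and 25.1 in wt/wt skin. Here ko/ko replicate 4 lay below wt/wt replicate 2. Of the 5 genes compared in this way (mt-Nd1, mt-Nd2, mt-Nd4, mt-Nd5 and mt-Cytb), mt-Cytb varied least, between 67.5 and 71.2 in ko/ko skin and between 61.2 and 68.2 in wt/wt skin. These ratios were examined after the fold changes had been seen and carry no test.

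The nuclear subunits showed a small shift in 1 direction without a called gene. Of the 81, 79 could be tested. The 2 that could not were Cox8c, with 0 counts in every library, where a floor of 3 counts corresponds to 0.0778 to 0.162 CPM, and Cox7b2, with 1 count in wt/wt replicate 1 and 0 in the other libraries. Of the tested 79, 0 were called higher and 0 were called lower at an edgeR adjusted p under 0.05, where the background over all tested genes was 0.712% higher and 0.702% lower. At an unadjusted edgeR p under 0.05, 14 lay lower in ko/ko skin and 0 higher, beside a background of 10.9% lower and 8.64% higher. All 14 were among the 69 tested subunits under 900 coding bases. Of 3891 other protein-coding genes of that length, 734 lay lower at the same threshold and 161 higher. The fold change was below 0 for 70 of the 79, or 88.6%, beside 53.3% of all tested genes. Other scalings of the libraries put 68 to 71 below 0. The median was -0.19, the range -0.50 to 0.18, and the median of all tested genes -0.02.

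The count of called genes depended on 1 library. Without wt/wt replicate 3, 14 of the 79 were called lower, beside a background of 3.32% lower. DESeq2 on all 8 libraries called 3 lower (Uqcrh, Ndufa6 and Cox7a2l), beside a background of 3.28%, and limma voom with quality weights called 11 lower, beside 7.13%. Without a filter on low counts edgeR called 1, Ndufa6, beside 0.739% lower. Of the 14 and the 11, 8 were shared: Atp5h, Cox7a2l, Ndufa4l2, Ndufa6, Ndufb11, Ndufb4, Ndufc2 and Uqcrh. Replicate 3 was the lowest of the 4 wt/wt libraries for 64 of the 79 genes, or 81%, beside 29.4% of all tested genes. This was not particular to the members. The share was 85.6% for the list of Rpl and Rps symbols described below. It was 47.2% for other protein-coding genes under 900 coding bases, against 21.0% for protein-coding genes of 900 bases or more. Replicate 3 was also the lowest for 12 of the 13 mitochondrial subunits. The same library had a mean log2 level of the white adipocyte markers of 7.44, against 6.23 to 6.64 in the other wt/wt libraries and 7.05 to 7.78 in the ko/ko libraries. With that mean as a covariate, 28 of the 79 lay below 0 and their median was 0.03, while the median of the mitochondrial subunits was 0.67, and 2 genes of all tested were called. With the mean of the skeletal muscle markers as a covariate instead, 68 of the 79 lay below 0 with a median of -0.20, and 24 genes were called. Apart from wt/wt replicate 3 the adipocyte mean was higher in every ko/ko library. Adipocyte content and genotype thus cannot be told apart in that fit, and the cause was not tested.

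**Figure D3:**
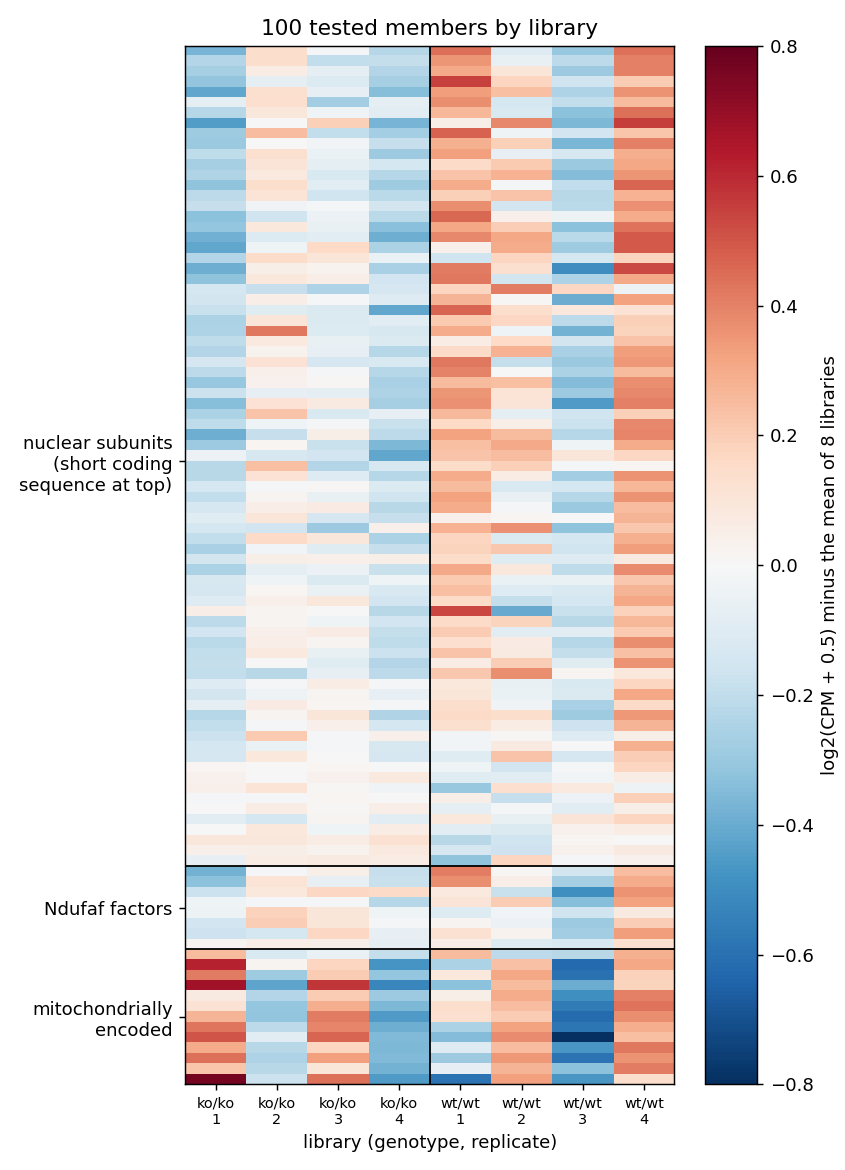
Level of each of the 100 tested genes in each library, as log2(CPM + 0.5) minus the mean over the 8 libraries, with ko/ko left and wt/wt right. In the nuclear block wt/wt replicate 3 is lower than the other wt/wt libraries for most genes, and in the mitochondrial block ko/ko replicates 1 and 3 and wt/wt replicates 2 and 4 are the higher ones.

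Complexes were assigned by symbol. Within complex I, which takes electrons from NADH, 33 of the 38 nuclear genes placed there lay below 0, with a median of -0.18. They include Ndufa4 (-0.28), now counted as a subunit of complex IV, and its relative Ndufa4l2. Ndufa6 (chr15:82350139-82354291, minus strand), an accessory subunit of the LYR family that binds the mitochondrial acyl carrier protein, had 42.0, 52.0, 45.4 and 39.9 CPM in ko/ko skin, against 60.9, 63.4, 50.3 and 63.2 CPM in wt/wt skin. All ko/ko libraries but replicate 2 lay below all wt/wt libraries. Its log2 fold change was -0.41 ± 0.11 (SE, edgeR adjusted p = 0.0833). Ndufa4l2 (chr10:127514939-127517152, plus strand) is a relative of Ndufa4 known to be induced by low oxygen. It had 39.9, 44.9, 48.6 and 43.2 CPM in ko/ko skin, against 69.4, 51.8, 48.8 and 61.8 CPM in wt/wt skin. The groups did not overlap, by a margin of ko/ko replicate 3 to wt/wt replicate 3 that was smaller than the spread in either group. Its log2 fold change was -0.39 ± 0.12 (edgeR adjusted p = 0.111). Ndufb11, an X-linked accessory subunit of the membrane arm, had the next smallest p with -0.29 ± 0.11 (edgeR adjusted p = 0.174).

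The 7 nuclear core subunits of complex I, among them Ndufs1 and Ndufv1, carry the flavin and the iron-sulfur clusters. Their median was -0.01, with 4 below 0. Of the 31 other nuclear genes placed in complex I by symbol, 29 lay below 0 with a median of -0.19. Ndufs1, the longest of them by coding sequence, had 149, 162, 163 and 162 CPM in ko/ko skin, against 125, 176, 154 and 160 CPM in wt/wt skin. Its groups overlapped, with both the lowest and the highest value in wt/wt skin. Ndufb9, the highest nuclear subunit of complex I by level, stood at 159 CPM per kb in ko/ko skin and 181 in wt/wt skin, and Ndufab1, the acyl carrier protein, was the lowest over all 8 libraries at 4.28 in ko/ko skin and 4.32 in wt/wt skin. Within ko/ko skin Ndufb2 was lower still, at 4.11 CPM per kb beside 4.68 in wt/wt skin. The annotated exons of Ndufab1 span 6883 bases around a coding length of 468 bases, and the level is per kb of exon.

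In complex III, which passes electrons from ubiquinol to cytochrome c, 6 of 8 lay below 0 with a median of -0.27. Uqcrh (chr4:116066965-116075071, minus strand), the hinge protein beside cytochrome c1, had the most negative value of all 79. It had 80.2, 97, 98.6 and 79.7 CPM in ko/ko skin, against 137, 130, 89.8 and 147 CPM in wt/wt skin. Of the wt/wt libraries 3 lay above all ko/ko libraries, and replicate 3 lay below ko/ko replicates 2 and 3. The log2 fold change was -0.50 ± 0.14 (SE, edgeR adjusted p = 0.106). Uqcr10 and Uqcrb, small subunits of the complex, stood at -0.36 (edgeR adjusted p = 0.242) and -0.27 (edgeR adjusted p = 0.278). The 2 large core proteins stood at 0.06 ± 0.08 for Uqcrc1 and 0.05 ± 0.10 for Uqcrc2. By level over all 8 libraries, Uqcrfs1, the Rieske iron-sulfur protein, was the highest with 87.2 CPM per kb in ko/ko skin and 98.0 in wt/wt skin, although within wt/wt skin Uqcrh stood above it at 102. The lowest was Uqcrq with 30.5 in ko/ko skin and 37.4 in wt/wt skin.

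In complex IV, cytochrome c oxidase, all 16 tested nuclear genes placed there by symbol lay below 0 with a median of -0.22, and none was called. The smallest p of all nuclear subunits belonged to Cox7a2l (chr17:83501919-83514333, minus strand), which joins complexes III and IV into supercomplexes and was placed here by its symbol. It had 74.4, 70.2, 69.1 and 57.5 CPM in ko/ko skin, against 90.1, 91.2, 82.3 and 86.2 CPM in wt/wt skin. Every ko/ko library lay below every wt/wt library. The log2 fold change was -0.37 ± 0.09 (SE, edgeR adjusted p = 0.0671), which missed the threshold. Without overlap between genotypes, 5 nuclear subunits lay lower in ko/ko skin (Cox7a2l, Ndufa4l2, Cox6b2, Atp5l and Atp5s), or 6.33% beside a background of 5.95%. In the other direction there was 1, Atp5b, beside a background of 5.57%.

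Several subunits of complex IV come in a widespread form and a tissue-restricted form. Cox6a2, Cox7a1 and Cox8b are the forms of heart and skeletal muscle, Cox4i2 is known from lung and from low oxygen, and Cox6b2 from testis. Cox6a2 had a log2 fold change of -0.03 and stood at 68.8 CPM per kb in ko/ko skin and 70.04 in wt/wt skin, beside 90.9 in ko/ko skin and 102 in wt/wt skin for its partner Cox6a1. Cox8b stood at 68.3 CPM per kb in ko/ko skin and 86.2 in wt/wt skin, beside 107 in ko/ko skin and 120 in wt/wt skin for Cox8a. Cox7a1 had 24.8 CPM per kb in ko/ko skin and 30.4 in wt/wt skin, beside 66.9 and 79.3 for Cox7a2 in ko/ko and wt/wt skin.

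The counts of a muscle form beside its partner varied between libraries of both genotypes. For each 100 counts of Cox8a there were 33.8, 40.1, 61.4 and 35.6 counts of Cox8b in ko/ko skin, against 35.2, 63.5, 39.2 and 54.4 in wt/wt skin. High and low libraries occurred in both genotypes. Cox6b2 had 2.66, 2.84, 2.79 and 2.17 CPM in ko/ko skin, against 4.42, 3.44, 3.29 and 3.36 CPM in wt/wt skin. All ko/ko libraries lay below all wt/wt libraries, and the log2 fold change was -0.48 ± 0.17 (SE, edgeR adjusted p = 0.159). Per 100 counts of Cox6b1, however, Cox6b2 gave 2.995, 2.86, 2.79 and 2.38 counts in ko/ko skin, against 3.38, 3.76, 3.78 and 2.58 in wt/wt skin, and these ranges overlapped. Cox4i2 was the lowest of the 16 tested subunits of the complex with 2.20 CPM per kb in ko/ko skin and 2.42 in wt/wt skin, and Cox4i1 the highest with 157 in ko/ko skin and 175 in wt/wt skin.

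In complex V, the ATP synthase, 15 of 17 nuclear genes lay below 0 with a median of -0.19. Atp5b (chr10:128083273-128090391, plus strand), the catalytic beta subunit, had 957, 957, 937 and 981 CPM in ko/ko skin, against 771, 807, 911 and 904 CPM in wt/wt skin. Every ko/ko library lay above every wt/wt library, and wt/wt replicates 3 and 4 came close to them. The log2 fold change of 0.18 ± 0.09 did not pass (SE, edgeR adjusted p = 0.324), and Atp5b is named here after its values were seen. Its partner Atp5a1, the alpha subunit and the highest nuclear member per kb of complex V at 244 CPM per kb in ko/ko skin and 228 in wt/wt skin, had a value of 0.09. The smallest p in the complex belonged to Atp5s, the coupling factor B, with -0.37 ± 0.11 (edgeR adjusted p = 0.123), then Atp5l, subunit g of the membrane part, with -0.38 ± 0.12 (edgeR adjusted p = 0.124) and Atp5h, subunit d of the stalk, with -0.30 ± 0.12 (edgeR adjusted p = 0.217). Atp5g1, 1 of the genes for the subunit c ring, was the lowest at 0.647 CPM per kb in ko/ko skin and 0.734 in wt/wt skin.

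**Figure D4:**
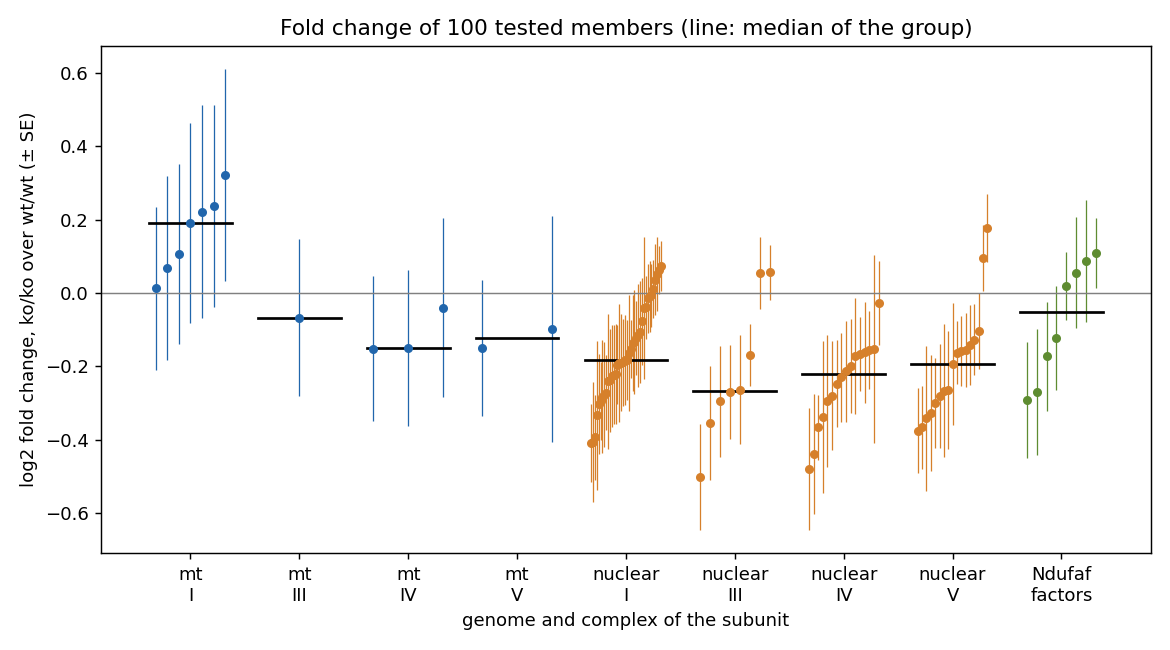
Log2 fold change, ko/ko over wt/wt, of the 100 tested genes, grouped by genome and complex, with SE as bars and the median of each group as a black line. Complexes were assigned by symbol. The nuclear medians lie between -0.27 and -0.18, and the mitochondrial subunits of complex I have a median of 0.19 with wide bars.

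The genes above 0 shared a property that the choice of members did not use, a long coding sequence. With a split at 900 bases, set after the values had been seen, 8 of the 10 tested nuclear subunits of 900 bases or more lay above 0 with a median of 0.06: Atp5b, Atp5a1, Ndufa9, Ndufv1, Uqcrc1, Uqcrc2, Ndufs1 and Ndufa10. Of the 2 below 0, Ndufv3 stood at -0.15. Of the 69 shorter ones, 68 lay below 0 with a median of -0.22, and the exception was Ndufs3 with 0.04. With the reads of its near-identical copy Gm12251 added, which held 45.6% of the joint counts, a choice made after seeing the data, Ndufs3 also lay below 0 at -0.07. Just outside the split, Atp5c1 with 894 bases stood at -0.10, and just inside it, Ndufa10 with 1065 bases stood at 0.01. Across the 79 genes Spearman's rho of the fold change with coding length was 0.63, as a description over genes of the same 8 libraries, which are not independent replicates.

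The same split, with smaller differences, ran through all tested protein-coding genes, in which the members are included. Of 3971 tested protein-coding genes under 900 coding bases, 72.9% lay below 0 with a median of -0.13, and without the members it was 72.4% of 3891 with a median of -0.13. Of 11095 genes of 900 bases or more, 45.2% lay below 0 with a median of 0.02. Spearman's rho over these 15066 genes was 0.33. A further list took protein-coding symbols that begin with Rpl or Rps and a digit, or with Rplp. Most such symbols belong to cytosolic ribosomal proteins, but the pattern also takes other genes, such as kinases of ribosomal proteins. Of its 97 tested genes, 87 lay below 0 with a median of -0.28, and 0 were called. In wt/wt replicate 3 the genes of this list summed to 6819 CPM, against 8796 to 9311 CPM in the other wt/wt libraries. In the ko/ko libraries the sum was 6832 to 7680 CPM. An offset for exon length in the fit moved the median of the nuclear subunits to -0.11, with 64 of 79 below 0. Exon length had a weaker relation to the fold change than coding length. Its Spearman's rho was 0.34 over the 79 genes and 0.23 over all 19099 tested genes. No offset for coding length was fitted. What part of the shift belongs to length, to tissue composition or to genotype was not tested.

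**Figure D5:**
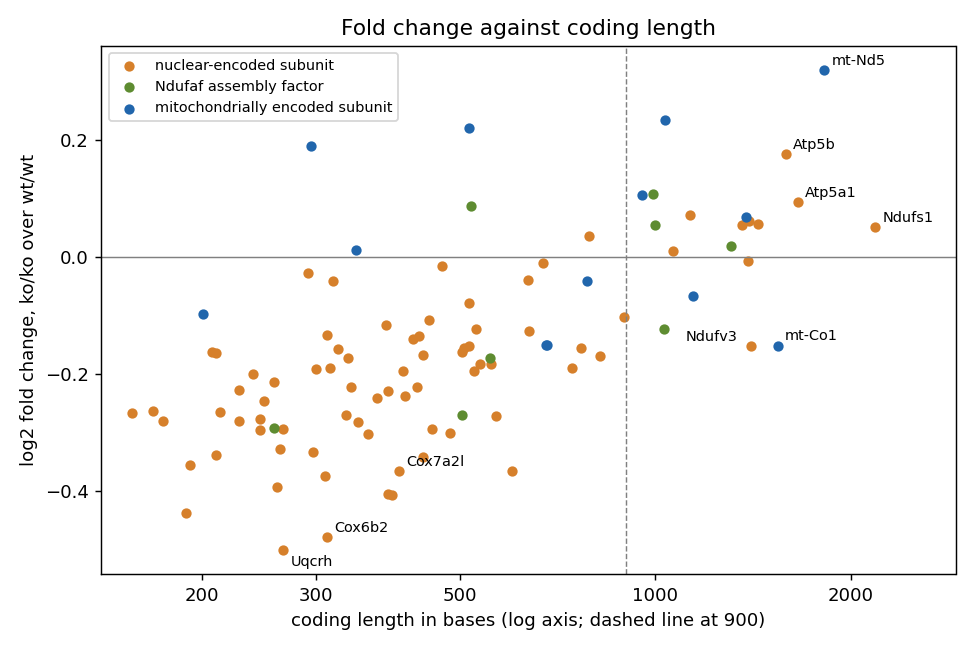
Log2 fold change, ko/ko over wt/wt, against coding length in bases (log axis) for the tested nuclear subunits (orange), Ndufaf factors (green) and mitochondrially encoded subunits (blue), 1 point per gene. Of the orange points right of the dashed line at 900 bases 8 of 10 lie above 0, and of those left of it 68 of 69 lie below 0.

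Copies also affected the nuclear subunits. An annotated gene with at least 97% identity over at least 80% of the coding sequence existed for 15 of the 81. These 15 had a median level of 11.9 CPM per kb in ko/ko skin and 12.8 in wt/wt skin, beside 51.1 in ko/ko skin and 54.5 in wt/wt skin for the 64 tested subunits without a copy. Copies held 93.4% of the joint counts for Atp5g1 (Gm10039), 68.4% for Cox7c (Gm10012 and Gm12338) and 56.7% for Atp5h (Gm10250), so that the levels of these subunits are uncertain. Cox7c, a small subunit of complex IV, had 5.32, 6.37, 6.21 and 5.54 CPM in ko/ko skin, against 10.1, 7.67, 5.98 and 7.84 CPM in wt/wt skin, which overlapped through wt/wt replicate 3. Its log2 fold change was -0.44 ± 0.16 (SE, edgeR adjusted p = 0.184), and with the reads of its copies added, a choice made after seeing the data, -0.27 ± 0.16 (edgeR adjusted p = 0.398). With copies added throughout, 0 nuclear subunits were called.

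Promoters of respiratory chain genes are known for sites of the factors NRF1, GABPA, YY1 and the estrogen-related receptors. RefSeq windows of 250 bases before to 50 after the start site (GRCm38.p6) were found for 66 of the 81 nuclear subunits, 71 windows in all, and were searched on both strands beside all 32851 windows. The NRF1 letters, GCGCA followed by any base and GCGC, were in 16 of the 71 (22.5%), beside 4.60% of all windows. The ETS letters CCGGAAG, as bound by GABPA, were in 14 (19.7%), beside 8.86%. The YY1 letters AAGATGGC were in 10 (14.1%), beside 2.75%, and the receptor letters TCAAGGTCA in 1 (1.41%), beside 0.423%. The last bases of the ETS letters can serve as the first of the YY1 letters, but the joined form was in 0 of the 71. A match is a description of the letters and not a site in use, and no relation to the calls was tested. Of the members called lower without wt/wt replicate 3, Atp5h, Ndufa5, Ndufa6 and Ndufb4 held the NRF1 letters. Atp5j2, Cox7a2l, Ndufa4, Ndufb11, Ndufc2 and Uqcrh were called and had a window without them. The letters were also in Atp5c1, Atp5g2, Atp5g3, Atp5k, Atp5o, Cox6a1, Ndufa8, Ndufa11, Ndufs5, Ndufs6 and Uqcrc1, which were not called. Stretches of 60 bases, in the direction of the gene and with the NRF1 letters in capitals, are given for Atp5h, Ndufb4 and Ndufa5, which were called lower without wt/wt replicate 3, and for Cox6a1, which was not.
Atp5h, chr11:115420026-115420085, minus strand: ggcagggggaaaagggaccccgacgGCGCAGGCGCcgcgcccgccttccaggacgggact
Ndufb4, chr16:37654525-37654584, minus strand: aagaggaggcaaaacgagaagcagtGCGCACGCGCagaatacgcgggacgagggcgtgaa
Ndufa5, chr6:24527682-24527741, minus strand: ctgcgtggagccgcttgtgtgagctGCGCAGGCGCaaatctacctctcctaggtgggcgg
Cox6a1, chr5:115349086-115349145, minus strand: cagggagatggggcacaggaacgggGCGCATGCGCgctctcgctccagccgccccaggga

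The Ndufaf factors, which help to build complex I and are not part of the finished enzyme, were split evenly, with 4 of 8 above 0 and 4 below, a median of -0.05 and 0 called. The values ranged from -0.29 ± 0.16 for Ndufaf8 (edgeR adjusted p = 0.340) to 0.11 ± 0.10 for Ndufaf1 (edgeR adjusted p = 0.562). All 8 were lowest among the wt/wt libraries in replicate 3.

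Of the other genes of the pathway, 0 were called in any of the 8 lists. Complex II, which is wholly nuclear-encoded and feeds electrons from succinate, had 1 of 4 subunits above 0. That was Sdha, the flavoprotein subunit, with 305, 312, 321 and 315 CPM in ko/ko skin, against 232, 271, 293 and 281 CPM in wt/wt skin. Its groups did not overlap, and the log2 fold change was 0.22 ± 0.09 (SE, edgeR adjusted p = 0.208). Cytochrome c1 (Cyc1) stood at -0.15 and cytochrome c (Cycs) at -0.09. Of the 13 citric acid cycle enzymes 10 lay above 0 with a median of 0.09, among them Ogdh at 0.24. The 35 tested assembly factors of the complexes had a median of 0.0016 with 17 below 0, and Coa4, a factor of complex IV, had the smallest p among them with -0.39 ± 0.11 (edgeR adjusted p = 0.105). Sco2 was at 0 counts in every library and was not tested.

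Among 22 genes of mitochondrial DNA expression and RNA stability, 9 lay above 0 and 13 below. Lrpprc, which stabilises mitochondrial messenger RNAs, had 72.1, 48.7, 86.1 and 48.9 CPM in ko/ko skin, against 39.1, 44.9, 44.5 and 46.0 CPM in wt/wt skin. Its groups did not overlap, and ko/ko replicates 1 and 3 were far above the others. These were also the ko/ko libraries with the higher mitochondrial sums, while the wt/wt libraries with high sums, replicates 2 and 4, did not stand out in Lrpprc. The log2 fold change was 0.55 ± 0.17 (SE, edgeR adjusted p = 0.133). Mterf1a, a mitochondrial transcription termination factor, had 3.42, 2.89, 3.12 and 3.07 CPM in ko/ko skin, against 4.77, 4.63, 4.17 and 4.35 CPM in wt/wt skin, without overlap, at -0.52 ± 0.14 (edgeR adjusted p = 0.0835). Of 10 regulators of mitochondrial biogenesis 6 lay below 0, including Ppargc1a, a coactivator of these genes, with -0.37 ± 0.16 (edgeR adjusted p = 0.229) and Esrra, an estrogen-related receptor, with -0.21 ± 0.08 (edgeR adjusted p = 0.184). The other 4 lay above 0, and the highest was Pprc1 with 0.39 ± 0.17 (edgeR adjusted p = 0.241). Of the 13 genes of ubiquinone synthesis 7 lay above 0, with Coq4 at -0.29 and Pdss1 at 0.23. Of the 5 tested carriers 2 lay above 0. Ucp1, the uncoupling protein of brown fat, had at most 6 counts in a library and was not tested, and Ucp2 stood at -0.32 ± 0.15 (edgeR adjusted p = 0.279).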

How the data were processed

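GSNAP, featureCounts 1.6.2 and the build mm10 are named in the submitters' processing notes. The deposited values are raw counts per gene, made by the authors without normalization. The strand setting, the aligner's handling of reads with several alignments and whether each library came from its own mouse are stated nowhere in the sources at hand. No pair of replicates agreed within counting noise (chi-square per gene of 5.94 or more). If libraries share a mouse, p-values measure only technical spread. The design text names a SMART protocol, and the sample labels name a directional kit. The table also held 92 spike-in rows with at most 1 count, which were left out.

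Genes were tested with edgeR 4.0.16 in R 4.3.3: filterByExpr, TMM factors, the robust quasi-likelihood test with genotype as the only term, and Benjamini-Hochberg adjustment over all 19099 tested genes. SE came from the F statistic, and the test was checked on simulated data. The length column of the table gave levels per kb, and GENCODE vM21 gave symbols. Members, gene lists and tests were chosen with earlier results of these data known. The genes named are all mitochondrial members, called genes, the 3 of each complex and up to 2 of each list with the smallest p, isoform pairs, and the highest and lowest per kb. Others named were chosen after their values were seen. Results of 1 gene under this rule are left out. Alternatives were other scalings, filters, equal depth, DESeq2 1.42.0, limma 3.58.1 voom, marker covariates, a length offset and each library left out.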

Additional observations from a re-analysis of the deposited data

Results flagged for a closer look

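In 5 of the 86 groups of 4 libraries examined, 1 library stood apart from the other 3 by more than Dixon's 95% limit, and chance gives about 1 in 20 such groups. Cox6a1 had 72.4 CPM in ko/ko replicate 2, against 60.7 to 61.3 CPM in the other ko/ko libraries. Cox7a2 had 73.8 CPM in the same library, against 58.8 to 61.0 CPM in the other ko/ko libraries. Ndufab1 had 26.6 CPM in ko/ko replicate 1, against 30.3 to 30.5 CPM in the others. Atp5s had 10.2 CPM in ko/ko replicate 3, against 9.05 to 9.24 CPM in the others. Cox6b2 had 4.42 CPM in wt/wt replicate 1, against 3.29 to 3.44 CPM in the other wt/wt libraries.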

How the results depend on the processing

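The number of called genes over all tested genes, 270, was 1185 with DESeq2, 2535 with voom, 502 without a low-count filter, 24 with the skeletal muscle covariate and 2 with the white adipocyte covariate. It ranged from 11 (without ko/ko replicate 2) to 1325 (without wt/wt replicate 3) with each library left out. Nuclear-encoded subunits called lower, 0 as reported, numbered 3 with DESeq2, 11 with voom, 1 without a filter (Ndufa6) and 0 to 14 with a library left out, 14 being without wt/wt replicate 3. Genes of the pathway lists called, 0 as reported, numbered 3 with DESeq2, 6 with voom and 0 to 1 with a library left out. Beside these, 1185 of the 19099 tested genes were called with DESeq2 and 2535 of 19099 with voom. The median log2 fold change of nuclear-encoded subunits, -0.19, moved to 0.028 with the white adipocyte covariate, and the median log2 fold change of mitochondrially encoded subunits, 0.01, moved to 0.67. Flg kept its direction there at -1.30 but not its call (edgeR adjusted p = 0.0829). The cause was not tested in any of these. Mitochondrially encoded subunits called stayed at 0 in either direction under every alternative run. For single genes, 29 comparisons gained a call, 1132 kept their side of the threshold and 0 reversed a called direction. DESeq2 gave no adjusted p for 1119 genes, of which 0 were members. No paired analysis was possible because the labels carry no replicate numbers, and the numbers used here pair nothing. With 4 libraries a group, a nuclear subunit at -0.50 ± 0.14 missed the threshold.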
